A study of Homo sapiens with 4 samples.

Results

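The MYC/MAX network genes examined here are MYC, MYCN, MYCL, MAX, MXD1, MXD3, MXD4, MXI1, MNT and MLX. They were taken by name from the count table of the series, which holds all 10 among its 60606 genes. RNA sequencing was performed on DaroR cells, the darolutamide-resistant line derived from LNCaP prostate cancer cells and kept in 10 μM of the antiandrogen darolutamide. The siControl group received a control siRNA and the siLOC730101 group a pool of siRNAs against the lncRNA LOC730101, each at 20 nM and each with 2 libraries. All 4 libraries come from a single resistant line, and no source used here says whether the replicates were separate cultures, so that p-values measure the spread between these libraries only. The comparison asks which genes change when LOC730101 is depleted in resistant cells.

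MYC, MYCN and MYCL are transcription factors of the bHLH-zipper class that bind DNA as dimers with MAX, mostly at the E-box CACGTG, and activate genes of growth, nucleolar and metabolic function. MXD1, MXI1, MXD3, MXD4 and MNT also dimerize with MAX at E-boxes, but they recruit SIN3 and histone deacetylases and repress transcription. MLX is the partner of MLXIP (MondoA) and MLXIPL (ChREBP), which respond to glucose, and it can also pair with some of the MXD proteins and MNT. MYC is often gained in advanced prostate cancer and is a classical driver of proliferation in this tissue.

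The libraries held 39213498 to 53368158 counts, with both siLOC730101 libraries below both siControl libraries. LOC730101, listed as ENSG00000216775, was counted 2560 and 2370 times in siControl and 633 and 680 times in siLOC730101, a log2 fold change of -1.56 (standard error, SE, 0.12; edgeR adjusted p = 4.34e-06). All 10 luminal prostate markers examined were detected and tested, KLK3 and STEAP2 among them, with 0 of 10 passing an adjusted p of 0.05, and their summed level ranged from 9043 to 9969 CPM in siControl and from 9738 to 9803 CPM in siLOC730101. Of the basal markers, KRT5 and TP63 had 0 counts in all libraries and the summed level of the 4 genes was at most 0.632 CPM. Of the neuroendocrine markers, CHGA, CHGB and INSM1 had 0 counts, and the 6 genes together had 2.76 to 3.79 CPM. Of 5 stromal and blood cell markers, COL1A2 and PTPRC had 0 counts, and the list summed to 13.4 to 17.6 CPM, most of it from COL1A1. Whether fewer expressing cells or less RNA per cell underlies a difference cannot be told apart in bulk libraries.

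Because the network acts through E-boxes, the RefSeq promoters of its own members (GRCh38.p14, 250 bases before to 50 bases after the start site) were searched for CACGTG, which reads the same on both strands. MYC had no entry, so its promoter was not searched. Of 9 members with an entry, 3 held the motif, in 3 of 12 promoters, against 7.26% of the 35116 promoters in the table. The 12 promoters of the members had 55.0% to 76.0% GC, against a median of 58.7% over all promoters. The matches of MXD4 (chr4:2262330-2262359, minus strand), MNT (chr17:2401236-2401265, minus strand) and MLX (chr17:42567038-42567067, plus strand) lie 238, 193 and 50 bases before the start site. They are shown with the E-box in capitals, since 2 repressors and MLX carry the letters that the network itself reads.

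MXD4: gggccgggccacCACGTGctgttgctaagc

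MNT: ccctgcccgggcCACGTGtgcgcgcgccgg

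MLX: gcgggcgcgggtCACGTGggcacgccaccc

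The study follows miR-1-3p, so the 3′ UTRs of the 10 members were searched for matches to its seed in a GRCh37 annotation, with 1 transcript per gene. A match to bases 2 to 8 (ACATTCC) was found in 2 of 10 members, MXD1 and MNT, against 12% of 18738 protein-coding genes. In both it was an 8mer, which 4.95% of all these genes held. The median 3′ UTR of all these genes was 1105 bases, shorter than those of MXD1 and MNT. In MXD1 the bases CATTCC of the 8mer start at position 228 of a 3′ UTR of 4661 bases (GRCh37 chr2:70165644-70165649, plus strand). In MNT they start at position 79 of 2828 bases (GRCh37 chr17:2290111-2290116, minus strand). The 3′ UTRs of MYC (1993 bases), MYCL, MXD3, MXI1 and MLX held 0 matches even to the 6mer CATTCC. MAX and MXD4 each held a single CATTCCA, and MYCN a single 6mer. The mature miR-1-3p is printed with its seed in capitals, and the sites of the members with the matched bases in capitals.

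miR-1-3p: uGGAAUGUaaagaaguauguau

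MXD1 site: tgagagactatACATTCCAatcaatttgaa

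MNT site: accagctccacACATTCCAgccaggcccag

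MAX site: cgtgtttgattcCATTCCAtggaaataaaa

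MXD4 site: cagattcctaatCATTCCAgaagtattaaa

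Levels were compared between genes as CPM per kilobase of exon, that is, CPM after TMM scaling divided by the exon length in the table. MYC was the most abundant member, at 25.8 and 25.7 CPM per kilobase in siControl and 28.6 and 29.0 in siLOC730101. MXD4 followed with 16.6 to 20.5 over the 4 libraries and MLX with 13.5 to 19.1, and their ranges overlapped, although MXD4 led within each of the 4 libraries. MXI1, at 10.1 to 11.3, lay above MAX, at 7.69 to 9.67, without overlap. MXD1 (3.80 to 4.70) and MNT (3.64 to 4.01) overlapped, and MXD1 again led within each of the 4 libraries. MYCL, at 1.98 to 2.52, and MXD3, at 1.63 to 1.92, were the lowest members that passed the expression filter. The remaining neighbours in this order did not overlap in range. Reads over exon bases that genes share are left uncounted by featureCounts at its defaults, with no strand option, so that a level per kilobase can be an underestimate. The largest overlap with another gene covers 1.16% of the exon bases of MXD4 but 18.2% of those of MLX, 13.1% of those of MAX and 24.2% of those of MXD3. For MXD1 and MNT this largest overlap covers 3.73% and 12.2%. The order of MXD4 over MLX, MXI1 over MAX, MXD1 over MNT and MYCL over MXD3 therefore holds only for the levels as counted.

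**Figure D1:**
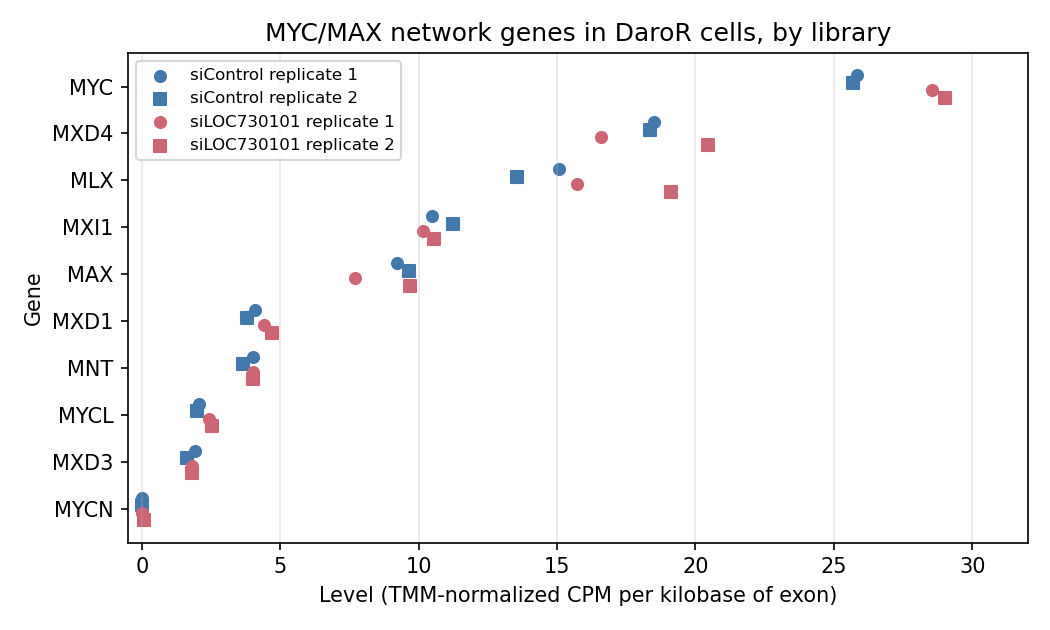
Level of each member (CPM per kilobase of exon, x axis) in the 4 libraries, siControl in blue and siLOC730101 in red, circles for replicate 1 and squares for replicate 2. MYC leads at 25.7 to 29.0 and MYCN lies at or near 0; the siLOC730101 replicates of MXD4, MLX and MAX lie far apart.

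MYCN (chr2:15940550-15947007, plus strand), the family member of neural tissue and neuroendocrine tumours, had 0 counts in both siControl libraries and in siLOC730101 replicate 1, and 8 counts in siLOC730101 replicate 2. A count of 0 allows up to 3 counts, or 0.0201 to 0.0265 CPM per kilobase in these 3 libraries, for counting error only. This bound takes counts as independent, and is too low if mates were counted apart. MYCN did not pass the filter and was not tested, so that 9 of the 10 members entered the comparison.

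Among the 9 members tested, 0 passed an adjusted p of 0.05 in edgeR, where 0.284% of the 19349 genes did. DESeq2 also called 0, though it gave no adjusted p for MXD3. At an unadjusted p under 0.05 it was 1 of 9, MLX, against 10.8% of all genes tested. The groups did not overlap in 4 of 9 members, MYC, MYCL, MXD1 and MLX, against 41.7% of all genes. All 4 had the siLOC730101 libraries on the higher side. The median log2 fold change was 0.067 for the 9 members and -0.0021 for all genes tested, with 7 of 9 members above 0. The 95% intervals of the 9 members reached from 0.772-fold to 1.55-fold at their extremes. An exact two-sided permutation test of 2 against 2 libraries has 0.333 as its smallest p, and was not used for single genes.

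MYC (chr8:127735434-127742951 on GRCh38, plus strand) was counted 6401 and 5514 times in the siControl libraries and 5380 and 5051 times in the siLOC730101 libraries. After scaling this was 118.4 and 117.8 CPM in siControl against 130.9 and 133.0 CPM in siLOC730101. The replicates of each group lay close together and the groups did not overlap, with means of 118.1 ± 0.430 and 132.0 ± 1.48 CPM (SD, n = 2). The log2 fold change was 0.16 (SE 0.077, edgeR adjusted p = 0.478), an interval of 0.997-fold to 1.25-fold, and it stayed between 0.12 and 0.18 over 14 alternative settings. CASC11 overlaps 4.23% of the exon bases of MYC on the opposite strand and had at most 53 counts in a library.

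MYCL (chr1:39895426-39902256, minus strand), whose product is the third MYC paralog and is best known from small cell lung cancer, had 10.4 and 10.0 CPM in siControl and 12.2 and 12.8 CPM in siLOC730101. The siLOC730101 libraries were higher in both replicates. Its log2 fold change of 0.29 (SE 0.16, edgeR adjusted p = 0.545) rested on 469 to 560 counts a library, with an interval of 0.968-fold to 1.55-fold. MYC made up 91.8% to 92.8% of the summed level of the 3 MYC genes per kilobase, whichever siRNA was used.

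MAX (chr14:65006174-65102695, minus strand), the obligate partner of MYC, had 57.7 and 60.3 CPM in siControl and 48.1 and 60.5 CPM in siLOC730101. Its siLOC730101 replicate 1 lay below the other 3 libraries, and replicate 2 lay above all of them. The log2 fold change was -0.12 (SE 0.11, edgeR adjusted p = 0.765) and changed to 0.046 without siLOC730101 replicate 1. Exons of FNTB on the opposite strand cover 13.1% of the exon bases of MAX.

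Of the repressors, MXD4 (chr4:2247432-2262109, minus strand) was the most abundant, and MXD proteins as a group are linked to differentiation and cell cycle exit. MXD4 had 127.3 and 126.1 CPM in siControl and 114.1 and 140.6 CPM in siLOC730101, so that the siControl libraries lay between the siLOC730101 libraries. Its log2 fold change was 0.0066 (SE 0.094, edgeR adjusted p = 0.993), with an interval of 0.874-fold to 1.15-fold. MXI1 (chr10:110207605-110287365, plus strand) had 61.9 and 66.5 CPM in siControl and 59.9 and 62.3 CPM in siLOC730101, which overlapped, with a log2 fold change of -0.071 (edgeR adjusted p = 0.850).

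MXD1 (chr2:69897688-69942945, plus strand), induced during differentiation and the carrier of an 8mer for miR-1-3p, had 25.8 and 24.2 CPM in siControl and 28.1 and 29.9 CPM in siLOC730101. The siLOC730101 libraries were above the siControl libraries, with a log2 fold change of 0.21 (SE 0.11, edgeR adjusted p = 0.539) and an interval of 0.979-fold to 1.37-fold. MNT (chr17:2384073-2401104, minus strand), the other member with an 8mer and the most widely expressed MAX-binding repressor, had 34.9 and 31.6 CPM in siControl and 34.9 and 34.8 CPM in siLOC730101. Its siLOC730101 libraries were nearly equal and lay within or just above the siControl range, with a log2 fold change of 0.067 (SE 0.11, edgeR adjusted p = 0.890). Both members with an 8mer had log2 fold changes above 0, as did 7 of the 9 members tested, and neither passed the threshold. An effect of miR-1-3p on them was not tested.

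MXD3 (chr5:177301461-177312757, minus strand), the MXD gene whose expression is tied to S phase in proliferating cells, had 9.10 and 7.71 CPM in siControl and 8.49 and 8.59 CPM in siLOC730101. The siLOC730101 libraries lay between the siControl libraries, and the log2 fold change was 0.022 (SE 0.19, edgeR adjusted p = 0.988). Exons of PRELID1 on the opposite strand cover 24.2% of the exon bases of MXD3 and those of RAB24 on the same strand 19.5%.

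MLX (chr17:42567072-42573239, plus strand) was the member with the lowest p. It had 64.2 and 57.6 CPM in siControl and 66.9 and 81.4 CPM in siLOC730101. The groups did not overlap, but siLOC730101 replicate 1 lay only slightly above siControl replicate 1, and replicate 2 lay far above the other 3 libraries. The log2 fold change was 0.28 (SE 0.10, edgeR adjusted p = 0.291), with an interval of 1.04-fold to 1.42-fold. Without siLOC730101 replicate 1 it was 0.43 and without siLOC730101 replicate 2 it was 0.13, each with a single library left in that group. MLX passed the threshold in no alternative that kept all 4 libraries. Exons of PSMC3IP on the opposite strand, a gene with 265 to 419 counts a library, cover 18.2% of the exon bases of MLX.

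In siLOC730101 replicate 2, MAX, MXD4 and MLX were all higher than in replicate 1, by 0.33, 0.30 and 0.28 on the log2 scale. The same log2 ratio was 0.023 for MYC and -0.0056 for MNT, so that the siLOC730101 replicates differed for some members and not for others. The lowest scaling factor of the 4 libraries, 0.969, was that of siLOC730101 replicate 2. Across the 19349 genes tested, the log2 ratio of siLOC730101 replicate 2 to replicate 1 had a Spearman rho of -0.13 with exon length. That of the siControl replicates was -0.046, and that of the log2 fold change between the groups -0.056. A negative rho for the replicates means that longer genes tended to be lower in replicate 2. These are descriptions over genes of shared libraries. The exon length was 6257 bases for MAX, 6873 for MXD4 and 4255 for MLX, against 4584 for MYC and 8701 for MNT. The part of exon length in the values of MAX, MXD4 and MLX was not tested.

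**Figure D2:**
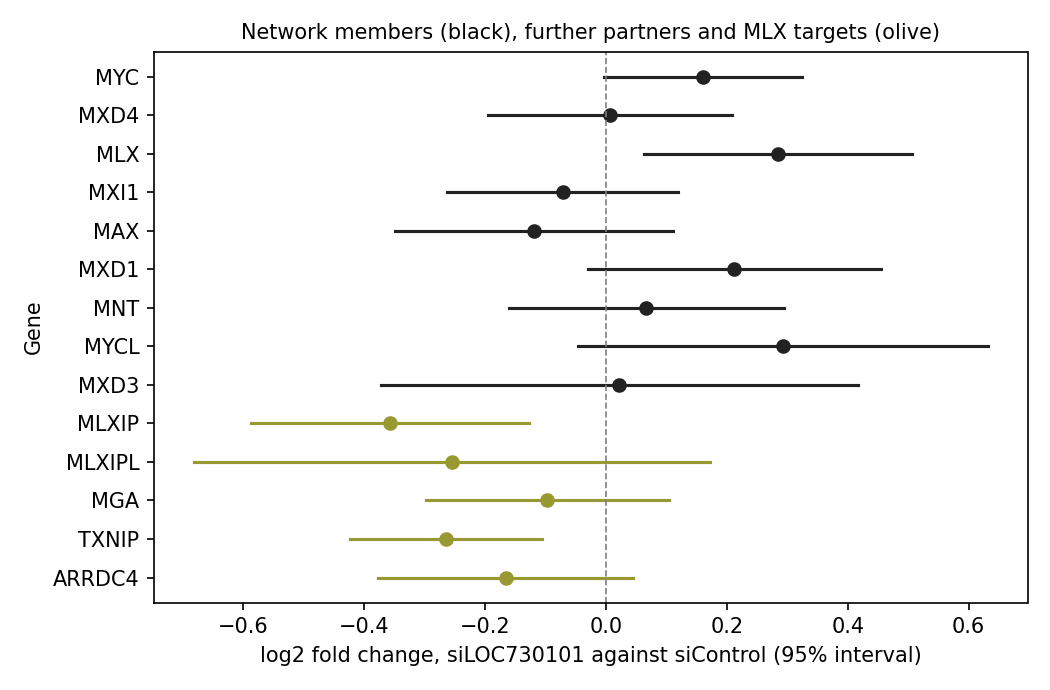
Log2 fold change of siLOC730101 against siControl (x axis; points) with 95% intervals (lines) for the 9 members tested, in black, and for MLXIP, MLXIPL, MGA, TXNIP and ARRDC4, in olive. MLX is the member whose interval lies wholly above 0, from 0.063 to 0.51, while those of MLXIP and TXNIP lie wholly below 0; none of the genes drawn passed an adjusted p of 0.05.

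Summed per kilobase, the repressors MXD1, MXD3, MXD4, MXI1 and MNT made up 42.8% and 43.2% of the 10 genes in siControl and 40.5% and 40.7% in siLOC730101. Their summed level itself overlapped between the groups, at 39.0 and 38.7 CPM per kilobase in siControl and 37.0 and 41.5 in siLOC730101. The total of the 10 genes was 91.2 and 89.5 in siControl and 91.4 and 101.9 in siLOC730101. The MYC genes made up 30.6% and 30.9% in siControl and 33.9% and 31.0% in siLOC730101. The ratio of repressors to MYC genes was 1.40 in both siControl libraries and 1.19 and 1.31 in siLOC730101, where the libraries lay further apart. The summed level of the MYC genes and the repressors was 6.89 to 8.83 times that of MAX in each library. MXD4 alone held 44.9% to 49.3% of the repressor level and MXI1 25.4% to 29.1%. These shares are RNA levels and say nothing of the proteins.

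**Figure D3:**
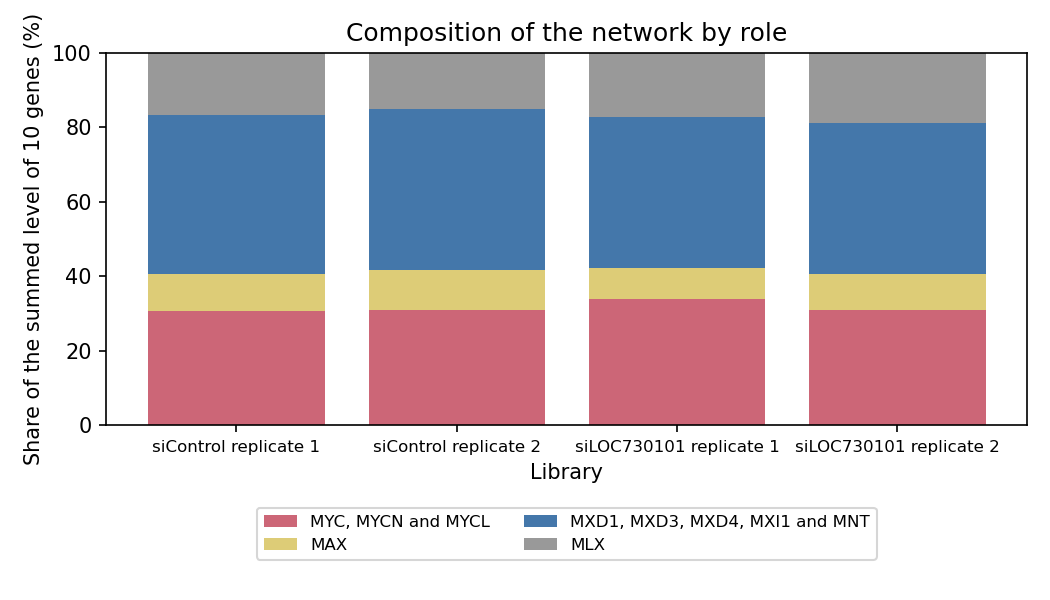
Share of the summed level of the 10 genes (CPM per kilobase, y axis in percent) held by each role in each library (x axis). Repressors hold 40.5% to 43.2%, the MYC genes 30.6% to 33.9%, MLX 15.1% to 18.8% and MAX 8.42% to 10.8%.

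The further partners of MAX and MLX were examined from a list of 3 genes, of which 0 passed the threshold and all 3 had log2 fold changes below 0. MLXIP, the glucose-sensing partner of MLX, had 35.6 and 33.5 CPM in siControl and 26.7 and 27.3 CPM in siLOC730101. The groups were well apart, with a log2 fold change of -0.36 (SE 0.11, edgeR adjusted p = 0.182), between -0.40 and -0.31 over 14 alternatives, of which 0 passed the threshold. MLXIPL had a log2 fold change of -0.26 (edgeR adjusted p = 0.714) and MGA, a MAX partner that also carries a T-box, of -0.097 (edgeR adjusted p = 0.786).

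TXNIP, a restrainer of glucose uptake and the best known target of the MLXIP-MLX dimer, had 260.1 and 280.6 CPM in siControl and 226.6 and 223.6 CPM in siLOC730101. The groups did not overlap, and its log2 fold change was -0.26 (SE 0.075, edgeR adjusted p = 0.162). TXNIP passed the threshold with every gene of at least 1 count kept (edgeR adjusted p = 0.0491) and with DESeq2 (adjusted p = 0.0210). It also passed with the replicate number as a block (edgeR adjusted p = 0.0140), but in no other alternative that kept all 4 libraries. Its log2 fold change ranged from -0.32 to -0.21 when each library was left out. ARRDC4, its paralog and a target of the same dimer, had a log2 fold change of -0.17 (edgeR adjusted p = 0.588) and groups that did not overlap.

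Among 15 cofactors of MYC, which acetylate histones, remodel chromatin or release paused polymerase, 0 passed the threshold, and 8 had log2 fold changes above 0, with a median of 0.0076. HCFC1, a chromatin scaffold that binds MYC, had the lowest p of them, with a log2 fold change of -0.13 (edgeR adjusted p = 0.565). Among 10 corepressors used by MXD proteins and MNT it was also 0, with 5 above 0 and a median of 0.017. RBBP7, a histone-binding subunit of the SIN3 complex, had a log2 fold change of 0.16 (edgeR adjusted p = 0.471), and SAP18 had 0.18 (edgeR adjusted p = 0.495). That of SAP18 ranged from 0.034 to 0.33 over 14 alternatives, the highest without siLOC730101 replicate 1, which leaves a single library in that group.

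Of 13 genes that control the turnover of the MYC protein, 1 passed the threshold, against 0.284% of the 19349 genes tested. STUB1, which encodes the ubiquitin ligase CHIP, rose from 96.8 and 96.8 CPM in siControl to 121.5 and 159.9 CPM in siLOC730101. The log2 fold change was 0.54 (SE 0.11, edgeR adjusted p = 0.0482), close to the threshold, and siLOC730101 replicate 2 lay well above replicate 1. It was 0.32 without siLOC730101 replicate 2 (edgeR adjusted p = 0.0419) and 0.73 without siLOC730101 replicate 1, and the adjusted p was 0.0576 with DESeq2 size factors and 0.0522 with upper-quartile factors. Exons of JMJD8 on the opposite strand, with 2452 to 3157 counts, cover 42.5% of the exon bases of STUB1, so that STUB1 was counted mostly over its other exon bases. CIP2A, an inhibitor of the phosphatase PP2A, had a log2 fold change of -0.29 (edgeR adjusted p = 0.435). The median of the 13 genes, which were not divided by the direction of their effect on MYC, was 0.0055.

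MYC-activated genes, many of them of ribosome biogenesis and nucleolar function, were examined in a list of which 56 genes were tested. IPO4, with 2 counts in a single library, was not tested. Of these 56 genes, 0 passed the threshold in edgeR. At an unadjusted p under 0.05 it was 11 higher and 2 lower, against 1244 higher and 850 lower of the 19349 genes tested (10.8% in all). The 2 lower genes were PLK4, with a log2 fold change of -0.44 (edgeR adjusted p = 0.307), and MCM5, with -0.24 (edgeR adjusted p = 0.374). The median log2 fold change was 0.066, and 26.8% of the genes lay below 0, against -0.0021 and 50.4% for all genes tested. DCTPP1, a nucleotide pyrophosphatase, had 78.1 and 86.4 CPM in siControl and 96.2 and 112.6 CPM in siLOC730101. Its log2 fold change was 0.34 (SE 0.094, edgeR adjusted p = 0.148), and ranged from 0.22 to 0.46 when each library was left out. DCTPP1 passed with every gene of at least 1 count kept, with DESeq2 and with the replicate number as a block. It passed in no other alternative that kept all 4 libraries. PHB1 (prohibitin) had a log2 fold change of 0.25 (edgeR adjusted p = 0.287), which ranged from 0.17 to 0.33 when each library was left out. NPM1 (nucleophosmin) had 0.096 (edgeR adjusted p = 0.676).

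Of 14 E-box targets of metabolism and the nucleolus tested, CCND2 with at most 6 counts aside, 0 passed, with 9 above 0 and a median log2 fold change of 0.023. LDHA, the lactate dehydrogenase subunit long known as a MYC target, had 308.9 and 315.8 CPM in siControl and 279.4 and 278.9 CPM in siLOC730101, a log2 fold change of -0.16 (edgeR adjusted p = 0.425). Of 6 genes that MYC is known to repress, 0 passed, with 4 above 0 and a median of 0.069. CDKN1B, the cyclin-dependent kinase inhibitor p27, had 0.15 (edgeR adjusted p = 0.549) and NDRG1 0.12 (edgeR adjusted p = 0.682). Genes that MYC is known to activate and those it is known to repress thus both had medians just above 0.

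**Figure D4:**
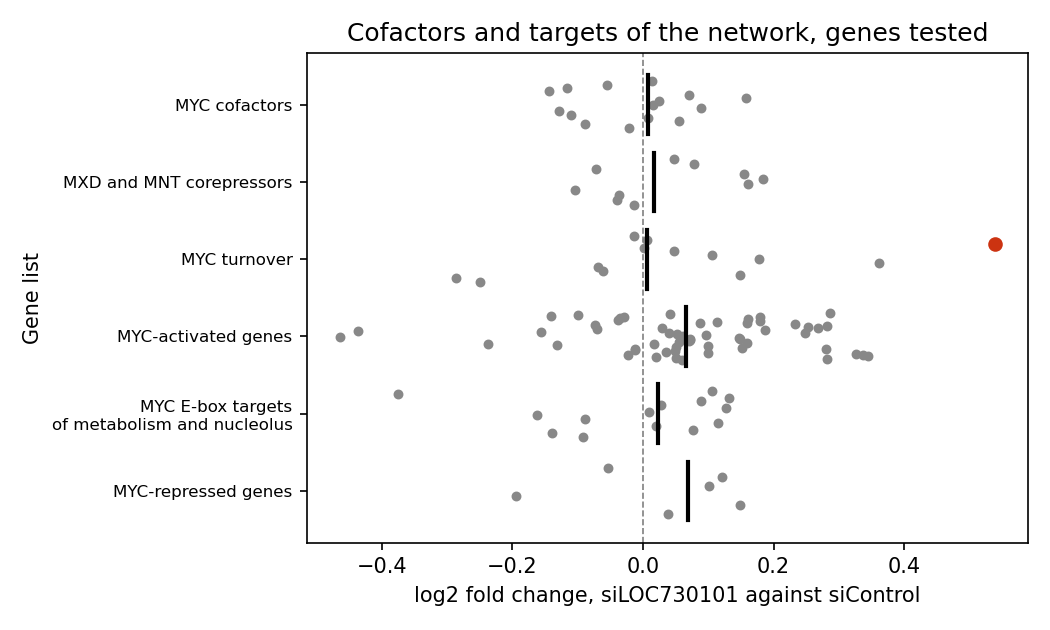
Log2 fold change of siLOC730101 against siControl (x axis) of each gene tested in 6 lists (y axis), with the median of a list as a black line and genes past an adjusted p of 0.05 in red. STUB1, at 0.54 in the turnover list, is the gene in red, and the medians lie between 0.0055 and 0.069.

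The lncRNAs that neighbour MYC were mostly at the edge of detection, with 6 of the 8 found in the table tested and 0 past the threshold. Of the 6, 5 had log2 fold changes below 0, with a median of -0.52. PVT1, which lies beside MYC and is often gained with it, had 42.1 and 41.9 CPM in siControl and 45.4 and 37.4 CPM in siLOC730101, so that the siControl libraries lay between the siLOC730101 libraries. Its log2 fold change was -0.020 (edgeR adjusted p = 0.977). CASC19 was counted 33 and 45 times in siControl and 12 and 16 times in siLOC730101, with a log2 fold change of -1.13 (SE 0.72, edgeR adjusted p = 0.620) at this depth. PRNCR1, which had the lowest p of the list, was counted 22 and 20 times in siControl and 0 and 4 times in siLOC730101. The groups did not overlap, and the difference did not pass the threshold in edgeR (adjusted p = 0.426) or in the 11 alternatives that gave an adjusted p, all with edgeR and from 0.288 to 0.789; DESeq2 gave none.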

How the data were processed

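RNA of 2 siControl and 2 siLOC730101 libraries of DaroR cells, poly(A)-selected, was compared. The deposited values are counts: the authors trimmed reads with Trim Galore and counted exons by gene name with featureCounts 2.0.1 on hg38 with gencode 41, per the file headers, without paired-end or strand options. The aligner is STAR with hg19 in the methods of the study and BWA in the submitters' processing notes. Among genes with 1 to 20 counts, 66.0% to 70.1% were even, so that mates may have been counted apart. Replicates differed by more than sampling noise, with a chi-square per degree of freedom of 10.7 and 13.2.

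Counts were tested in R 4.3.3 with edgeR 4.0.16: filterByExpr, TMM, and the quasi-likelihood test with the condition as the only term, Benjamini-Hochberg over 19349 genes. The biological coefficient of variation was 0.147. Standard errors come from the fold change and its F statistic. The script was tested on simulated data. DESeq2 1.42.0, other scalings, filters, quasi-likelihood settings, halved counts, a replicate block and leaving out each library were alternatives. Sequences were read with Python 3.11.15 from RefSeq tables (GRCh38.p14) and a GRCh37 annotation. Named genes are the members, LOC730101 and, from each list, genes called, the most abundant 3 and the 2 with the lowest p. Genes shown only as undetected or by exon overlap fall outside this rule, as do PLK4 and MCM5. Members and lists were chosen with earlier results of these data known. Some listed genes are counted within their lists but not reported here by name.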

Additional observations from a re-analysis of the deposited data

How the results depend on the processing

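The count of members called was 0 under each alternative that kept all 4 libraries. Leaving out a library leaves a single one in its group, and the log2 fold change of MLX then ranged from 0.13 to 0.43. Of the members, MXD4 changed direction to -0.026 with upper-quartile factors, -0.033 with library size only, -0.0063 with genes of a mean normalized count above 50 and -0.00090 with the replicate number as a block, and ranged from -0.15 to 0.16 when each library was left out. MXD3 changed to -0.0094 with upper-quartile factors and -0.016 with library size only, and ranged from -0.089 to 0.15 without single libraries. MAX ranged from -0.30 to 0.046, MGA from -0.23 to 0.029, PVT1 from -0.16 to 0.11 and NDRG1 from -0.0091 to 0.27. MYC, MYCL, MXD1, MXI1, MNT and MLX kept their direction in all 14 alternatives. LOC730101 passed in all 14, from -1.67 to -1.44.

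The count of all genes called depended on the setting. The 9 members tested are too few to show whether their count depends on it less. Against 41 higher and 14 lower, keeping every gene with at least 1 count gave 324 and 113. It was 137 and 50 with a mean normalized count above 50, 233 and 64 with DESeq2, 87 and 24 with the legacy method off, and 113 and 35 with halved counts. Lower genes were 35 with library size only. Without single libraries, higher genes ranged from 77 to 923 and lower genes from 26 to 272, both most without siLOC730101 replicate 1, where the lone library is assumed to vary like the siControl group. With the replicate block it was 485 and 167; the labels share only the number, and deviations of same-numbered libraries had a correlation of -0.00090 across genes. The cause of these differences was not tested. Depth limits MYCN, CASC19, PRNCR1 and the other genes with few counts.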
